A study of Mus musculus with 4 samples.

Results

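The genes described here encode lysosomal hydrolases, their lipid-handling cofactors and proteins of the lysosomal membrane. They were chosen by name: of 32 listed genes, 31 were found under their own symbol among the 21506 genes of the tables, each represented by its row of greatest exon length. The remaining one, the transcription factor gene Tfeb, was listed under its older symbol Tcfeb, found through its RefSeq accession, and is given beside the 31. By role there were 11 glycosidases, 5 sulfatases, 6 lipid enzymes and lipid cofactors, 1 protease, 1 thioesterase and 7 membrane proteins.

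RNA was sequenced from 32Dclone3, an established mouse myeloid line kept in serum, antibiotics and WEHI medium as a source of interleukin-3. Cells stably infected with the XZ control virus gave 2 libraries, and cells stably infected with XZ-miR-125b gave another 2. Per the labels each condition was infected on separate occasions with different virus supernatants, so the spread between libraries covers infection and culture of a single cell line, and p-values measure that spread alone. The comparison asks how messenger RNA levels differ when miR-125b is overexpressed.

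Lysosomes break down material from endocytosis, phagocytosis and autophagy in an acid lumen. Most soluble hydrolases reach them by a mannose 6-phosphate tag. Glycosidases and sulfatases remove sugars and sulfate groups one after another from glycolipids, glycoproteins and glycosaminoglycans, so that the lack of a single enzyme causes a storage disease. Membrane proteins such as LAMP1 line the organelle, NPC1 and NPC2 pass cholesterol out of it, and the transcription factor TFEB can raise many of these genes together through E-box motifs. In myeloid cells lysosomes share much of their contents with the primary granules of neutrophils and with the phagolysosomes of macrophages.

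Over all rows of the deposited tables the libraries held between 10.4 and 12.6 M reads. Values are RPKM, that is, reads scaled to exon length in kilobases and to M reads in the table, and at an exon length of 1 kb a count of 3 reads equals 0.238 to 0.289 RPKM. For the Mir125b-1 hairpin the tables list 0 reads in either control and 4 in either miR-125b library. Among 10 listed markers of myeloid progenitors, 9 were tested and Kit was near 0 in every library. Of these 9, 8 had lower means with miR-125b (median log2 fold change -0.45), with Csf2rb and Csf2rb2, receptor chains of the interleukin-3 family, at an unadjusted p under 0.05. The exception was the granule enzyme gene Mpo, at 39.1 and 54.2 RPKM in the controls, against 273.0 and 105.3 RPKM under miR-125b. Among 10 mast cell and basophil markers 5 were tested, of which Cpa3 had a log2 fold change of -1.71, Prss34 of 2.17 and Ms4a2 of 1.05. None of 9 lymphoid genes passed the filter on low values, and of 9 fibroblast genes only Pdgfrb did. Of 11 macrophage genes in the tables, 4 were tested, while C1qb and Marco were among those at 0 in every library. The summed level of the macrophage list was 107.1 and 146.6 RPKM in the controls, against 187.2 and 158.0 RPKM under miR-125b. Without Cd68, which is also a lysosomal gene, the sums were 81.1 and 107.5 RPKM in the controls, against 102.0 and 81.3 RPKM under miR-125b, and the groups overlapped. Of the 4 tested macrophage genes 2 were higher and 2 lower. The 10 mature neutrophil markers in the tables summed to 879.8 and 527.8 RPKM in the controls, against 163.7 and 130.0 RPKM under miR-125b. Mmp8 and Retnlg were at 0 throughout. S100a9 alone was at 459.7 and 247.8 RPKM in the controls, against 33.0 and 1.92 RPKM under miR-125b. Of the 6 tested neutrophil markers 4 were lower and 2 higher, the latter being Lcn2 and Cxcr2 with log2 fold changes of 0.39 and 0.16. The part of these markers in the lysosomal values was not tested. In bulk RNA, fewer cells of a type and less RNA per cell cannot be told apart.

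The mature miRNA is shown because the seed in capitals (bases 2 to 8) is what pairs with messenger RNAs. The sequence is RefSeq's for GRCm38.p6 (chr9:41581940-41581961, plus strand).
miR-125b-5p: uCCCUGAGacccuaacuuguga

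Sites were read from the 3′ UTR of the GENCODE M21 transcript matched to each row's RefSeq transcript, and its length can differ from the row's. The strongest kind of match, an 8mer, is the seed match CTCAGGG followed by A, a 7mer-m8 is CTCAGGG alone, a 7mer-A1 is TCAGGGA and a 6mer is TCAGGG. All matches were sought on the messenger strand, and each shorter motif lies within the longer ones, so that a gene was placed by its best match. An 8mer was found in Neu1, Sgsh and Gm2a, and a 7mer-m8 in Gla, Galns and Laptm5. For Gm2a the matched 3′ UTR of 3496 bases is longer than all 1994 exon bases counted, so its 8mer lies beyond them. These sites are printed because the genes that hold them include both members with the greatest proportional decrease. Capitals mark the match.
Neu1, bases 314 to 321 of a 3′ UTR of 1090: gagagatgaacagatacgaaCTCAGGGAac
Sgsh, bases 1333 to 1340 of 2796: ggcactggctctgagcaggtCTCAGGGAgt
Gm2a, bases 2734 to 2741 of 3496: tagaccaagatgaccctgaaCTCAGGGAcc
Laptm5, bases 1277 to 1283 of 1591: gcttgcttgccctgggctacgCTCAGGGga
Galns, bases 506 to 512 of 869: agcctaagtttctggccctggCTCAGGGca
Gla, bases 1329 to 1335 of 1718: ggctatacagagaaaccctgtCTCAGGGga
Gla, bases 1592 to 1598 of 1718: ccttgaaatacaagtctctacCTCAGGGgg

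Most of these lysosomal genes were at moderate to high levels, and the 2 conditions differed by modest amounts in both directions. The enzymes Manba, Gaa, Asah1, Glb1 and Smpd1 and the membrane protein gene Lamp1 were between 1.61 and 1.78 times higher in miR-125b libraries by their mean RPKM. The sialidase gene Neu1 was 2.47 times lower, the membrane protein gene Cln3 1.70 times lower, and the scarce sulfatase gene Sgsh 4.37 times lower. No member passed limma's test over all 10309 genes tested, and the smallest adjusted p among the members was 0.363. The test called 0 genes in all, 0% of those tested, with 966 at an unadjusted p under 0.05. The smallest p that an exact permutation test allows for 2 against 2 libraries is 0.333.

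Of the 31 genes, 30 passed the filter of at least 1 RPKM in at least 2 libraries, and Sgsh did not. Of those 30, 21 were higher and 9 lower with miR-125b, and the median log2 fold change was 0.20 on the log2(RPKM + 1) scale. Over all genes tested 52.8% were higher and the median was 0.024. At an unadjusted p under 0.05 in limma there were 8 of 30 members, or 26.7%, where 9.37% of all genes tested were at that level. In the upward direction there were 6 members, against 4.17% of all genes, and in the downward direction 2 members, against 5.2% of all genes. The groups did not overlap, with miR-125b higher, in 13 of 30 members (43.3%) and in 22.3% of all genes tested. They did not overlap, with miR-125b lower, in 6 of 30 members (20.0%) and in 20.4% of all genes. Without miR-125b replicate 2 the count at an unadjusted p under 0.05 was 1, Neu1, and 3.22% of all genes were at that level. Without control replicate 1 it was 12, beside 29.2% of all genes, and without control replicate 2 it was also 12, beside 11.3% of all genes. The genes had been listed with earlier results of these data known, so these shares are descriptions.

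**Figure D1:**
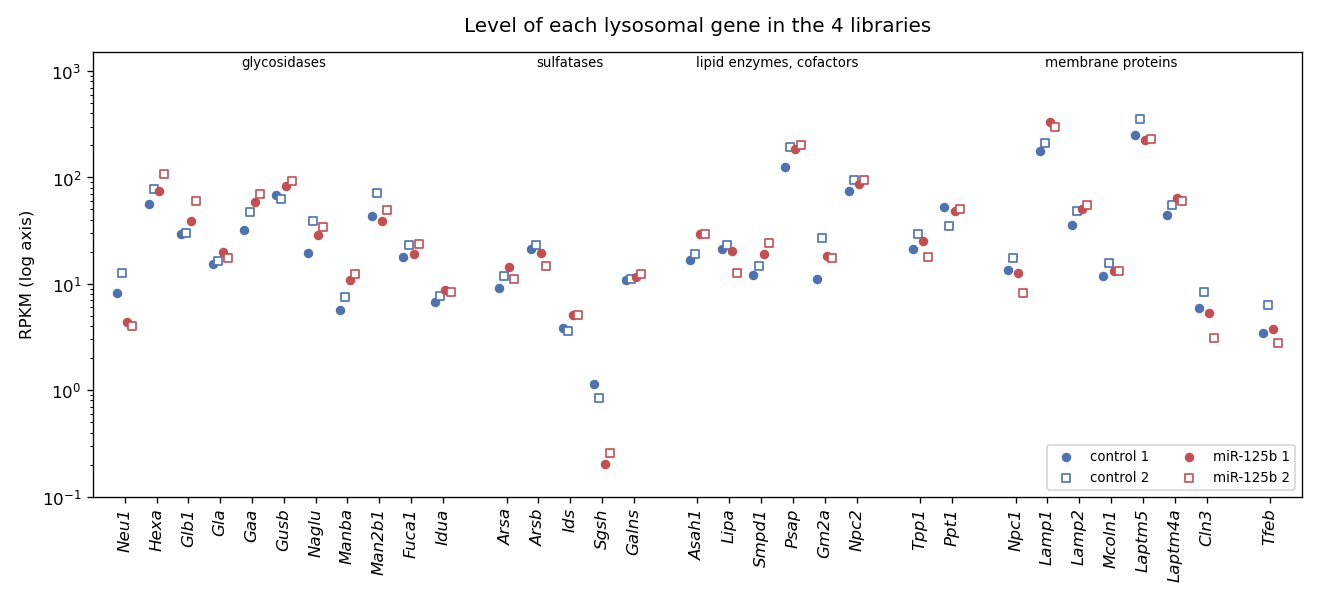
RPKM (log axis) of the 32 lysosomal genes in each of the 4 libraries, grouped by role, with control libraries in blue and miR-125b libraries in red. Both miR-125b points of Neu1 and of Sgsh lie below both control points, while those of Manba, Asah1 and Lamp1 lie above them.

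Summed over the 31 genes, the level was 1219 and 1591 RPKM in the controls, against 1578 and 1637 RPKM under miR-125b. The groups overlapped in this sum, since control replicate 2 stood above miR-125b replicate 1. The reads of these genes made up 0.439% and 0.579% of reads over 1 row per gene in control and 0.558% and 0.577% with miR-125b. Between 50.9% and 53.7% of the summed level came from 4 genes in each library, of which Laptm5, Lamp1 and Psap were always 3. Laptm5 was the most abundant in both control libraries and Lamp1 in both miR-125b libraries. The mean level of 25 of the 31 genes was at least 10 RPKM.

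**Figure D2:**
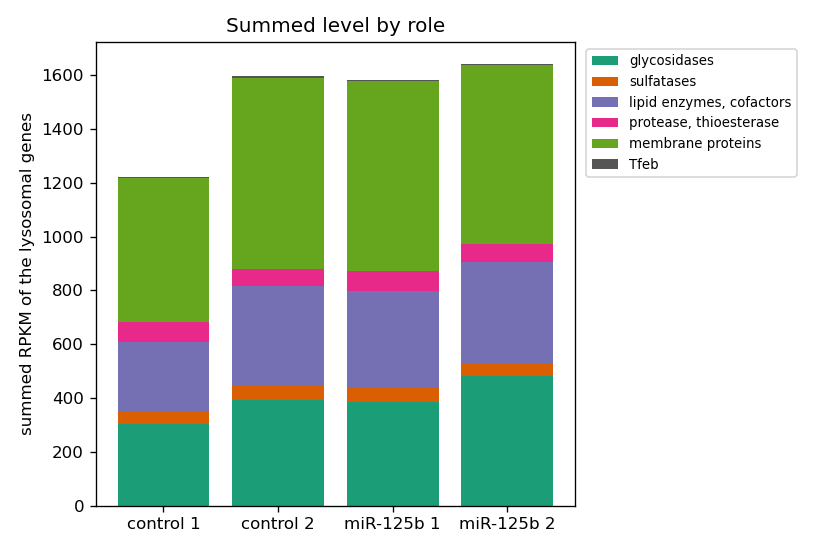
Summed RPKM of the lysosomal genes in each library, stacked by role. Control replicate 1 is the lowest column at 1222 RPKM with Tfeb included, and the other 3 lie between 1582 and 1640 RPKM.

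Among the glycosidases, 9 of 11 had higher means on the log2 scale with miR-125b and 2 had lower ones, with a median log2 fold change of 0.22. The tally became 7 higher and 4 lower without control replicate 1, and the median became 0.38 without control replicate 2. An unadjusted p under 0.05 was found for 3 higher members, Manba, Gaa and Glb1, and for 1 lower, Neu1. The lysosomal sialidase gene Neu1 (mm9 chromosome 17, 35068198 to 35074242, plus strand, 6 exons) stood at 8.19 and 12.5 RPKM in the controls, against 4.36 and 4.01 RPKM under miR-125b. Its groups did not overlap, and the spread between the controls was larger than that between the miR-125b libraries. NEU1 removes terminal sialic acids from glycoproteins and glycolipids and works in a complex with beta-galactosidase and cathepsin A. The group means were 10.4 ± 3.06 and 4.18 ± 0.252 RPKM (SD, n = 2 each). The log2 fold change was -1.10 ± 0.23 (SE), with an unadjusted p of 0.00238 and an adjusted p of 0.363 in limma. Leaving out each library in turn, it ran from -1.38 to -0.83, and Neu1 was the single member with an unadjusted p under 0.05 in all 15 settings, the main one included.

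The partner enzyme gene Glb1, beta-galactosidase, stood at 29.6 and 30.3 RPKM in the controls, against 38.6 and 60.6 RPKM under miR-125b. Both miR-125b libraries were above both controls, and they lay further from each other than the controls did. Its log2 fold change was 0.67 ± 0.25 (SE), with an unadjusted p of 0.0324 and an adjusted p of 0.505 in limma, and the value without miR-125b replicate 2 was 0.35. Manba encodes beta-mannosidase, which completes the breakdown of N-linked glycans. It was at 5.65 and 7.50 RPKM in the controls, against 10.98 and 12.4 RPKM under miR-125b. This was the greatest increase in log2 fold change among the members, 0.75 ± 0.20 (SE), with an unadjusted p of 0.00787 and an adjusted p of 0.438 in limma. Gaa encodes acid alpha-glucosidase, which degrades lysosomal glycogen and is lacking in Pompe disease. It was at 31.8 and 47.0 RPKM in the controls, against 58.5 and 70.7 RPKM under miR-125b, without overlap. Its log2 fold change was 0.72 ± 0.25 (SE), with an unadjusted p of 0.0235 and an adjusted p of 0.482 in limma. Leaving out control replicate 1 gave 0.44, and leaving out miR-125b replicate 2 gave 0.58, in neither case with an unadjusted p under 0.05.

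The other glycosidases gave smaller or less even differences. Gusb, beta-glucuronidase, which acts on glycosaminoglycans, was at 67.7 and 62.4 RPKM in the controls, against 83.8 and 92.8 RPKM under miR-125b. Its groups did not overlap, and its log2 fold change of 0.43 ± 0.19 (SE) had an unadjusted p of 0.0577 and an adjusted p of 0.534 in limma. Hexa, the alpha subunit of beta-hexosaminidase that degrades the ganglioside GM2, was at 56.1 and 77.3 RPKM in the controls, against 75.2 and 108.3 RPKM under miR-125b, which overlap. Gla, alpha-galactosidase A, the enzyme lacking in Fabry disease, was at 15.4 and 16.3 RPKM in the controls, against 19.8 and 17.4 RPKM under miR-125b. These Gla values do not overlap but differ by little more than the miR-125b libraries differ from each other. Idua, alpha-L-iduronidase, was at 6.73 and 7.74 RPKM in the controls, against 8.83 and 8.36 RPKM under miR-125b, also a small separation. Naglu, which removes N-acetylglucosamine from heparan sulfate, was at 19.3 and 39.2 RPKM in the controls, against 28.5 and 34.1 RPKM under miR-125b. The miR-125b values of Naglu both lay between the controls. Man2b1, lysosomal alpha-mannosidase, was at 43.5 and 71.1 RPKM in the controls, against 39.0 and 49.9 RPKM under miR-125b, again with overlap. Fuca1, alpha-L-fucosidase, was at 18.002 and 23.0 RPKM in the controls, against 19.0 and 23.5 RPKM under miR-125b, nearly the same pair of values in each condition.

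**Figure D3:**
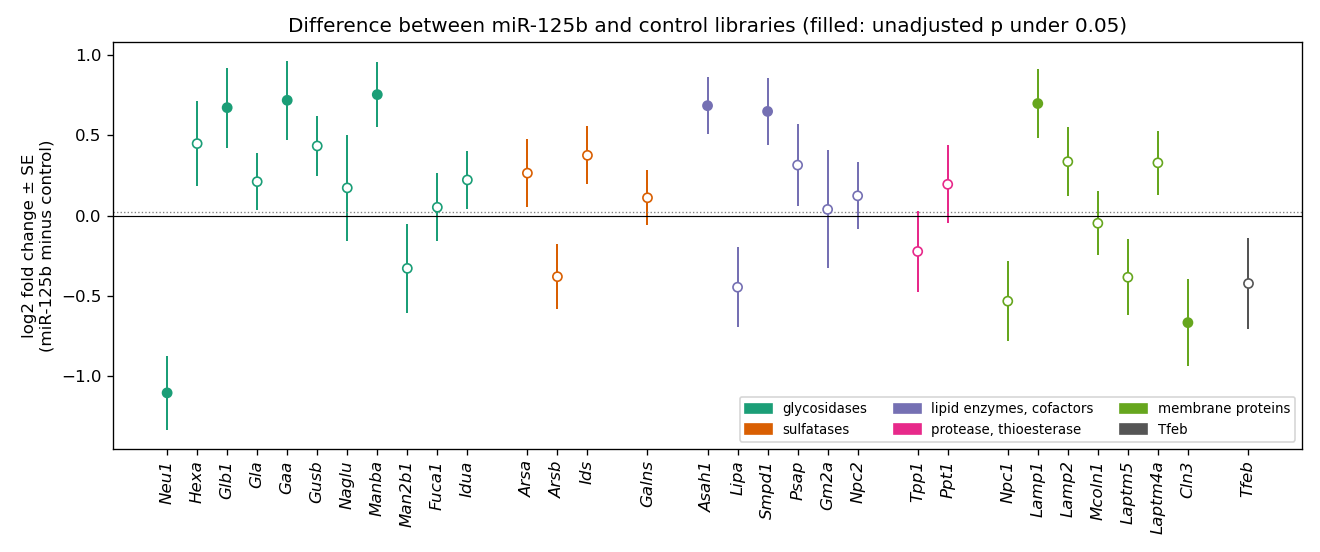
Log2 fold change (miR-125b minus control, log2(RPKM + 1), with SE bars) of the 31 lysosomal genes tested, Tfeb included, coloured by role. Filled points have an unadjusted p under 0.05 in limma, and the dotted line is the median of all genes tested, 0.024. The enzymes lie mostly above 0, with Neu1 the lowest point at -1.10.

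Of the 5 sulfatases, 4 were tested, 3 of them higher and 1 lower, with a median log2 fold change of 0.19 and none at an unadjusted p under 0.05. Leaving out control replicate 1 took that median to 0.10, and leaving out miR-125b replicate 1 took it to 0.12. Sgsh, N-sulfoglucosamine sulfohydrolase, which removes sulfate from heparan sulfate, was the scarcest member and fell under the filter. The Sgsh row (mm9 chromosome 11, 119204803 to 119216824, minus strand, 8 exons) held 56 and 38 reads in control and 11 and 13 reads with miR-125b, which is 1.15 and 0.847 RPKM against 0.202 and 0.256 RPKM. The groups did not overlap. With no filter on low values its log2 fold change with 1 RPKM added, a scale that shrinks differences between such low values, was -0.70 ± 0.10 (SE), with an unadjusted p of 0.00853 and an adjusted p of 0.568 in limma. Of its 4324 exon bases, 955 (22.1%) overlap exons of Card14 on the opposite strand, and without strand the reads there cannot be assigned. Card14 held 13 and 7 reads in control and 2 and 0 with miR-125b.

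Ids, iduronate 2-sulfatase, the enzyme lacking in Hunter syndrome, had the smallest p of the tested sulfatases. It was at 3.83 and 3.57 RPKM in the controls, against 5.05 and 5.14 RPKM under miR-125b, and both replicate pairs were close. Its log2 fold change was 0.38 ± 0.18 (SE), with an unadjusted p of 0.0783 and an adjusted p of 0.558 in limma. Arsb, arylsulfatase B, which acts on dermatan sulfate, was at 21.4 and 23.1 RPKM in the controls, against 19.3 and 14.7 RPKM under miR-125b. Its values separated downward, with more spread between the miR-125b libraries. Arsa, arylsulfatase A, which degrades sulfatide, was at 9.13 and 11.7 RPKM in the controls, against 14.4 and 11.1 RPKM under miR-125b, and Galns, which acts on keratan sulfate, was at 10.8 and 11.02 RPKM and at 11.5 and 12.3 RPKM. Arsa overlapped between groups, and Galns separated by a small amount.

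Lipid enzymes and cofactors were higher on the log2 scale in 5 of 6 cases, with a median log2 fold change of 0.22. That median rested on single controls, being -0.022 without control replicate 1 and 0.63 without control replicate 2. Asah1 and Smpd1, which act in succession on sphingolipids, both had an unadjusted p under 0.05. Asah1, acid ceramidase (mm9 chromosome 8, 42425997 to 42460051, minus strand, 14 exons), was at 16.7 and 18.9 RPKM in the controls, against 29.2 RPKM in both miR-125b libraries. The difference was several times the spread within either pair, with a log2 fold change of 0.69 ± 0.18 (SE), an unadjusted p of 0.00720 and an adjusted p of 0.423 in limma. Smpd1, acid sphingomyelinase, which makes the ceramide that ASAH1 cleaves, was at 12.1 and 14.8 RPKM in the controls, against 19.2 and 24.3 RPKM under miR-125b. The groups did not overlap, and the log2 fold change was 0.65 ± 0.21 (SE), with an unadjusted p of 0.0178 and an adjusted p of 0.465 in limma.

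Psap encodes prosaposin, the precursor of the saposins that present sphingolipids to their hydrolases. It was at 125.2 and 192.9 RPKM in the controls, against 186.5 and 201.0 RPKM under miR-125b. Control replicate 2 stood with the miR-125b libraries, and the log2 fold change was 0.0053 without control replicate 1 and 0.62 without control replicate 2. Gm2a, the activator protein that presents GM2 to beta-hexosaminidase, was at 11.2 and 26.8 RPKM in the controls, against 18.3 and 17.6 RPKM under miR-125b. Both miR-125b values of Gm2a lay between the controls, which lay far apart. Its mean RPKM was slightly lower with miR-125b (17.9 against 19.0), although its log2 fold change was 0.039. Npc2, the soluble cholesterol carrier, was at 74.1 and 94.4 RPKM in the controls, against 87.2 and 95.4 RPKM under miR-125b, with overlap. Lipa, lysosomal acid lipase, which frees cholesterol and fatty acids from esters, was at 21.2 and 23.0 RPKM in the controls, against 20.2 and 12.6 RPKM under miR-125b. Lipa separated downward mainly through miR-125b replicate 2, and its log2 fold change was -0.12 without that library.

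The tripeptidyl peptidase gene Tpp1 and the thioesterase gene Ppt1, both lacking in forms of neuronal ceroid lipofuscinosis, overlapped between the groups. Tpp1 was at 21.3 and 29.5 RPKM in the controls, against 25.3 and 17.9 RPKM under miR-125b. Ppt1, which removes fatty acids from proteins, was at 53.3 and 34.8 RPKM in the controls, against 48.8 and 50.3 RPKM under miR-125b. Its log2 fold change was 0.20 ± 0.24 (SE). Tpp1 had the smaller p, at -0.22 ± 0.25 (SE) with an unadjusted p of 0.404 and an adjusted p of 0.767 in limma.

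The membrane proteins did not share a direction. Of 7 genes, 3 were higher and 4 lower with miR-125b, with a median log2 fold change of -0.047, which became 0.035 with GC correction. Lamp1 (mm9 chromosome 8, 13159135 to 13175338, plus strand, 9 exons) encodes a heavily glycosylated protein that coats the inner face of the lysosomal membrane. It was at 175.5 and 212.7 RPKM in the controls, against 334.7 and 295.2 RPKM under miR-125b. Both miR-125b values were well above both controls, with means of 194.1 ± 26.3 and 315.0 ± 27.97 RPKM (SD, n = 2 each). The log2 fold change was 0.70 ± 0.21 (SE), with an unadjusted p of 0.0144 and an adjusted p of 0.464 in limma. Lamp2, its relative that also takes part in autophagy, was at 35.6 and 48.4 RPKM in the controls, against 50.9 and 54.6 RPKM under miR-125b. A second Lamp2 row with a different 3′ end stood at 47.2 and 71.0 RPKM in the controls, against 76.5 and 81.4 RPKM under miR-125b, the same order of libraries. Reads in the exons that both rows share are counted in each.

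Laptm5, a lysosomal protein of blood cells, was at 248.5 and 353.7 RPKM in the controls, against 225.0 and 228.9 RPKM under miR-125b. The groups did not overlap, but the controls differed from each other by more than the nearer one differed from the miR-125b libraries. Its more widely expressed relative Laptm4a was at 44.7 and 54.5 RPKM in the controls, against 64.5 and 60.2 RPKM under miR-125b. These relatives thus lay on opposite sides, with log2 fold changes of -0.38 ± 0.24 and 0.33 ± 0.20 (SE). Laptm5 was at -0.13 without control replicate 2, and Laptm4a at 0.19 without control replicate 1. The unadjusted p in limma was 0.153 for Laptm5 and 0.142 for Laptm4a.

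Cln3, a multispanning protein lacking in juvenile neuronal ceroid lipofuscinosis, was at 5.94 and 8.37 RPKM in the controls, against 5.32 and 3.08 RPKM under miR-125b. Its groups separated narrowly, between control replicate 1 and miR-125b replicate 1. The log2 fold change was -0.67 ± 0.27 (SE), with an unadjusted p of 0.0467 and an adjusted p of 0.526 in limma, and it was -0.35 without miR-125b replicate 2. Npc1, which hands cholesterol across the membrane after NPC2, was at 13.5 and 17.3 RPKM in the controls, against 12.7 and 8.23 RPKM under miR-125b. Here too the separation was narrow, with a log2 fold change of -0.53 ± 0.25 (SE), an unadjusted p of 0.0723 and an adjusted p of 0.553 in limma, and it was -0.25 without miR-125b replicate 2. A stretch of 3.15% of the Npc1 exons overlaps a gene on the opposite strand. Mcoln1, the calcium channel mucolipin 1, was at 11.9 and 15.8 RPKM in the controls, against 13.2 and 13.3 RPKM under miR-125b, between the controls.

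Tfeb, which was found through its accession and not by its own symbol, was at 3.44 and 6.28 RPKM in the controls, against 3.77 and 2.78 RPKM under miR-125b. Control replicate 2 stood apart from the other 3 libraries. The log2 fold change was -0.42 ± 0.28 (SE), with an unadjusted p of 0.183 and an adjusted p of 0.647 in limma. It was -0.064 without control replicate 2 and -0.78 without control replicate 1. Its relatives Tfe3 and Mitf had log2 fold changes of 0.086 and -0.19. Tfec, another relative, was at 61.5 and 13.2 RPKM under miR-125b, on either side of the controls at 22.3 and 20.96 RPKM.

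The difference between the 2 control libraries was larger and more one-sided over these genes than that between the groups. Of the 30 genes tested, 27 were higher in control replicate 2 than in control replicate 1, and the median difference was 0.34 on the log2(RPKM + 1) scale. Over all genes tested 48.5% were higher in control replicate 2 and the median difference was -0.016. Between the miR-125b libraries the members' median difference was 0.023, with 17 of 30 higher in replicate 2. Gm2a differed most between the controls, by 1.19, and Naglu by 0.99, while Ppt1 differed in the other direction, by -0.60. Without control replicate 1 the members' median log2 fold change was 0.10, with 17 higher and 13 lower, and without control replicate 2 it was 0.32, with 23 higher and 7 lower. Over all tested genes control replicate 2 correlated less with each other library (Pearson r of log2 values 0.957 with control replicate 1, 0.951 and 0.937 with the miR-125b libraries) than control replicate 1 did with the miR-125b libraries (0.977 and 0.962). Across all genes, the difference between the controls followed transcript GC content (Spearman's rho 0.477, as a description over 98.2% of tested genes), where rho between the miR-125b libraries was 0.050. The median GC content was 51.9% for the members and 50.4% for all genes tested, and with values corrected for GC content the members' median log2 fold change was 0.20, with 9 members at an unadjusted p under 0.05.

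**Figure D4:**
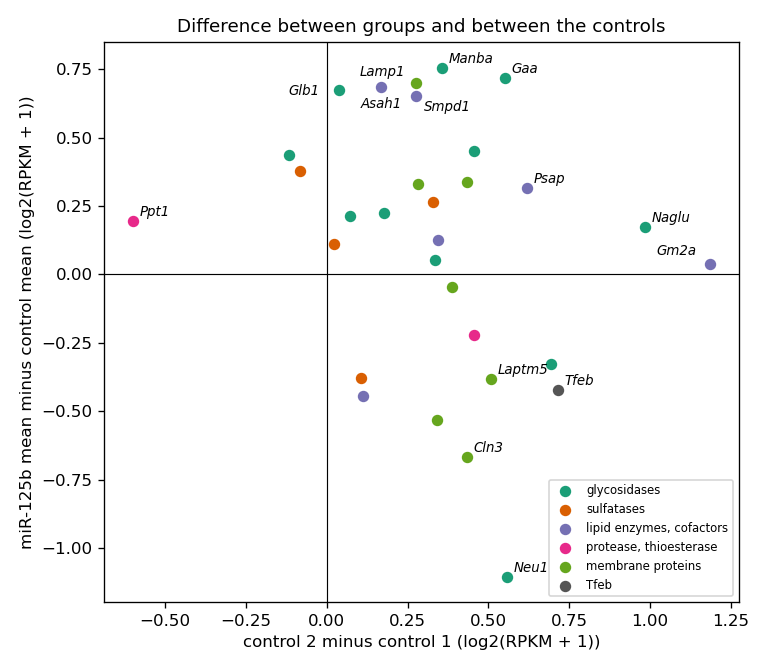
Difference between the group means (vertical) against the difference between the 2 control libraries (horizontal) for the 31 tested lysosomal genes, both on the log2(RPKM + 1) scale and coloured by role. Most points lie to the right of 0, higher in control replicate 2, and the horizontal spread is close to the vertical one. Both axes use the control libraries and are shown side by side as values, not as a relation.

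The members with a seed match did not lie on one side. Of the genes with an 8mer, Neu1 and Sgsh were lower. Gm2a, described above, had a log2 fold change of 0.039 but a slightly lower mean RPKM, and its 8mer lies beyond the exon bases counted. Among those with a 7mer-m8, Laptm5 was lower at -0.38, whereas Gla with 2 sites was at 0.21 and Galns at 0.11. Counting the 31 tested genes with Tfeb, 5 had an 8mer or 7mer-m8 match. By log2 fold change 2 of them were lower and 3 higher, with Gm2a counted as higher although its site lies beyond the bases counted. Of all tested genes with a 3′ UTR, 14.2% had such a match, with a median log2 fold change of -0.075 against 0.050 for the genes with none. Weaker matches were present in Fuca1 (7mer-A1) and in Npc2, Lamp1 and Tfeb (6mer), and the other 22 tested genes had none in this window, 7 of them lower and 15 higher. Manba has an 8mer only in a longer annotated 3′ UTR of 2052 bases and not in the 965 bases of its matched transcript. It was higher with miR-125b. Cln3 and Npc1, both lower, had no match.

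Promoters were read from RefSeq (GRCm38.p6, from 250 bases before to 50 after each start) for 29 of the 32 genes, to see which hold the E-box CACGTG through which TFEB and related factors bind. The motif reads the same on both strands. It was present in 9 of the 29 genes, or 31.0%, and in 8.91% of protein-coding genes in the same table. A gene was counted where any of its listed promoters held the motif, and Cln3 had a further listed promoter without it. They were Arsa, Cln3, Gaa, Gla, Glb1, Lamp1, Mcoln1, Naglu and Sgsh. The longer form TCACGTGA, which contains CACGTG, was present in Cln3, Gla and Mcoln1, and in 1.41% of protein-coding genes. The promoter stretches that hold 2 or more copies are printed to show their arrangement, with the motif and its flanking palindrome in capitals.
Lamp1, chr8:13159088-13159163, plus strand, 4 copies: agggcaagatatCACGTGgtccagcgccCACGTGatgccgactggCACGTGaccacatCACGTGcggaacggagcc
Mcoln1, chr8:3500436-3500492, plus strand, 2 copies: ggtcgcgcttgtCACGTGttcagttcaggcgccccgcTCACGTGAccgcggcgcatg
Gla, chrX:134601181-134601245, minus strand, 2 copies: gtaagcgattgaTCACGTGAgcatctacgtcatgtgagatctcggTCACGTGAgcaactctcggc
Cln3, chr7:126583338-126583397, minus strand, 2 copies: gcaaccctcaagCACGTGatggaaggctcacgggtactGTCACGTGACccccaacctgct

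The 4 copies of Lamp1 all lie before the start site. Of the genes with the motif, 8 were tested, 6 higher and 2 lower, with a median log2 fold change of 0.24. The 20 tested genes without it had a median of 0.16, with 13 higher and 7 lower. Lamp1, Gaa and Glb1 are in the former group, and Manba, Asah1 and Smpd1 are not, Asah1 having no promoter in the table. The motif was present in genes of either direction, Lamp1 being higher and Cln3 lower. A match is no evidence of binding, and the part of the motif in these values was not tested.

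Among other genes of the lysosome, from lists that share no gene with the members, 104 of 118 in the tables were tested. Of these 58 were higher and 46 lower with miR-125b, with a median log2 fold change of 0.078, and 0 passed limma's adjusted test. At an unadjusted p under 0.05 in limma there were 3 higher and 2 lower genes among these 104. This was a smaller share than over all genes tested, of which 9.37% were at that level. Other hydrolases and cofactors were higher in 16 of 21 cases, with a median of 0.14. Scpep1, a serine carboxypeptidase, had the smallest p of them, at 3.997 and 6.51 RPKM in the controls, against 8.99 and 14.0 RPKM under miR-125b. Other membrane proteins were higher in 9 of 22 cases, with a median of -0.087. Cd68, a macrophage-associated relative of LAMP1, stood at 26.0 and 39.1 RPKM in the controls, against 85.2 and 76.7 RPKM under miR-125b, the greatest difference in this list (log2 fold change 1.32, adjusted p 0.333 in limma).

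Cathepsins, the lysosomal proteases, were higher in 6 of 9 tested cases, with a median log2 fold change of 0.20. Ctsz stood at 204.4 and 180.7 RPKM in the controls, against 353.6 and 329.5 RPKM under miR-125b, without overlap. The lysosomal proton pump had 8 subunit genes higher and 8 lower, with a median of 0.047 and none at an unadjusted p under 0.05. Genes that sort enzymes to the lysosome were higher in 7 of 17 cases, with a median of -0.070. The cation-dependent mannose 6-phosphate receptor gene M6pr was at 98.0 and 82.8 RPKM in the controls, against 58.7 and 53.4 RPKM under miR-125b. The sorting adaptor gene Gga1 was at 24.2 and 30.7 RPKM in the controls, against 18.4 and 18.9 RPKM under miR-125b. Both were lower without overlap between the groups, with log2 fold changes of -0.68 and -0.52 and unadjusted p of 0.0120 and 0.0339 in limma. The TFEB family and genes of its control by mTORC1 had 12 higher and 7 lower members, with a median of 0.086 and none at an unadjusted p under 0.05.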

How the data were processed

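Expression was measured by RNA-seq of poly(A)-enriched RNA in 2 control and 2 miR-125b libraries. The authors deposited RPKM values for 26982 RefSeq transcripts per library with mm9 as the build named in the submitters' processing notes. The aligner, the counter and the handling of strand and of multiply matching reads are steps not given in the sources used here. Rows were joined by transcript and position, since their order differed between tables. Whole reads were recovered from RPKM and exon length in 100.0% of rows (tolerance 0.001 reads). The longest row was kept per gene.

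Genes with at least 1 RPKM in at least 2 libraries (10309) were tested with limma 3.58.1 in R 4.3.3 on log2(RPKM + 1), with a trended prior, 2-sided, group as the only term, and Benjamini-Hochberg adjustment over all of them, at a threshold of 0.05. Residual degrees of freedom were 2 and prior ones 4.63. The code was tested on simulated data. A count test had been planned if reads could be recovered; limma-voom on the recovered reads was run in its place, chosen after seeing the data.

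Members and lists were chosen with earlier results of these data known. All 32 genes were named, with full statistics where the unadjusted p was under 0.05 or smallest in its role, and for a few others chosen after their values were seen. GENCODE M21 and RefSeq sequences are on GRCm38, and no coordinates were converted. Figures were drawn with matplotlib 3.10.9.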

Additional observations from a re-analysis of the deposited data

How the results depend on the processing

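Across 14 alternative settings (pseudocount 0.1, no filter or a mean of at least 5 RPKM, quantile normalization, TMM factors, no trended prior, the row with the highest mean RPKM, GC correction, replicate block, limma-voom and each library left out) no member had an adjusted p under 0.05. Of 31 genes tested, 23 kept their direction in each setting that held them. The count of members at an unadjusted p under 0.05 was 7 to 9 with all libraries and ran from 1 (without miR-125b replicate 2) to 12 (without either control) with libraries left out, where the lone library of a group is assumed to vary like the other group. The members' median log2 fold change ran from 0.10 to 0.32 with libraries left out. Direction turned in at least 1 setting for 8 genes, whose main log2 fold changes ran from -0.33 (Man2b1) to 0.20 (Ppt1). With libraries left out, log2 fold changes ran from -0.32 to 0.67 for Naglu, -0.68 to 0.018 for Man2b1, -0.11 to 0.22 for Fuca1, -0.55 to 0.63 for Gm2a, -0.049 to 0.30 for Npc2, -0.46 to 0.015 for Tpp1, -0.10 to 0.49 for Ppt1 and -0.24 to 0.15 for Mcoln1. With GC correction they were -0.0064 for Gm2a and 0.035 for Mcoln1; the cause was not tested. Over all genes 137 passed when no filter was used, none of them a member. Leaving out miR-125b replicate 1 gave 91 such genes, leaving out its replicate 2 gave 25, and leaving out control replicate 2 gave 1, again with 0 members.

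With the replicate number as a block (replicate block) there were 8 members at an unadjusted p under 0.05, and over all genes 12 passed where 0 did without it. The labels do not say that a number marks a shared batch. Over all genes the deviations of same-numbered libraries were nearly uncorrelated (r = 0.021). Such a correlation cannot decide on a batch that affects only some genes or acts differently in each group. Whether same-numbered libraries share a batch was not tested. edgeR and DESeq2 were planned for recovered reads and not run, since the deposited unit is RPKM. Precision is limited by 2 libraries a group and, for Sgsh, by 11 to 56 reads; intervals over reads would cover counting error only.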
